A study of Mus musculus with 9 samples.

Results

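The genes described here encode the nuclear part of the mitochondrial respiratory chain and ATP synthase. They were taken by name, as every probe set with a single gene symbol beginning with Nduf, Sdha to Sdhd, Uqcr, Cox4 to Cox8, Cyc1 or Atp5. The rule found 186 probe sets of 95 genes, of 45037 probe sets and 18193 singly named genes on the array. Of these, 168 probe sets and 92 genes passed the filter on low values, and Cox6b2, Cox8b and Ndufb4 did not. The 92 genes tested were 33 of complex I, 4 of complex II, 9 of complex III, 17 of complex IV, 17 of complex V and 12 assembly factors, the last being proteins that help build complex I or II without staying in it. Ndufa4 and Ndufa4l2 carry a complex I name and were counted with complex IV, where the Ndufa4 protein is found.

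RNA came from mouse forebrain tissue punched from the BNST (bed nucleus of the stria terminalis, a limbic relay linked to the amygdala), the NAc (nucleus accumbens, or ventral striatum) and the dStr (dorsal striatum). The labels give 3 biological replicates for every region, each hybridised to 1 Affymetrix Mouse430_2 array, and the animals had received no treatment beyond brief isoflurane anaesthesia before decapitation. The labels give no strain, sex or age. They do not say whether animals were pooled or whether the regions share animals, so the p-values measure the spread between these samples. Each labelling started from 10 ng of total RNA taken from 300 µm slices and used a procedure with a second round of amplification, and a punch holds neurons, glia and vessels together. In such samples fewer cells of a type and less RNA per cell cannot be told apart. Summed over 7 tested marker genes, the intensity of medium spiny neuron markers, which define striatal tissue, was 2960 to 6260 on BNST arrays, 11600 to 17100 on NAc arrays and 18700 to 20600 on dStr arrays. The sum over 5 limbic neuron markers was 5420 to 6460 in BNST, 786 to 2090 in NAc and 469 to 747 in dStr. Array medians lay between 93.9 and 102.

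The respiratory chain passes electrons from NADH (at complex I) or succinate (at complex II) through ubiquinone, complex III and cytochrome c to oxygen at complex IV. Complexes I, III and IV pump protons as they do so, and complex V, the ATP synthase, uses the returning protons to make ATP. In every complex but II some subunits are made inside the mitochondrion, while the genes described here are transcribed in the nucleus, and neurons depend on the pathway for the ion pumping that signalling demands.

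Few respiratory chain genes differed in level between the regions beyond the spread of the arrays. Between BNST and dStr 3 of 92 genes passed the test (14.3% of all genes did), all lower in BNST, namely the complex I assembly factors Ndufaf2 and Ndufaf4 and the complex I subunit Ndufv1. Between BNST and NAc 0 of 92 passed (2.24% of all genes did), and between NAc and dStr 0 (2.05% of all genes did). The genes also varied between arrays of 1 region, and many did so together. The mean of all 92 genes spanned 0.49 on the log2 scale within BNST, 0.49 within NAc and 0.14 within dStr. The differences between region means were -0.14 (BNST minus NAc), -0.24 (BNST minus dStr) and -0.10 (NAc minus dStr). A range of single arrays and a difference of means over 3 arrays are unlike measures.

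All levels and differences below are on the scale of log2(intensity + 16) unless an intensity is named, and describe 1 probe set per gene, the kept one with the highest mean. Levels of different genes depend on their probes and are not set against each other.

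The shared movement of the genes was seen first in the array means. The mean over the 92 genes was 10.16, 9.67 and 10.10 on BNST arrays 1, 2 and 3. It was 9.86, 10.14 and 10.35 on the NAc arrays, and 10.13, 10.27 and 10.24 on the dStr arrays. BNST 2 and NAc 1 stood low, NAc 3 stood highest, and the dStr arrays lay within 0.14 of each other. The region means were 9.97 ± 0.26 in BNST, 10.12 ± 0.25 in NAc and 10.21 ± 0.07 in dStr (SD, n = 3 each), and the arrays of every pair of regions overlapped. Over all genes tested a different BNST array, BNST 1, lay furthest from the fit of its region. The limma array weights, low for an array far from the fit of its region, were 0.365, 0.794 and 6.24 on BNST 1 to 3. They were 0.298, 1.89 and 0.537 on NAc 1 to 3.

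**Figure D1:**
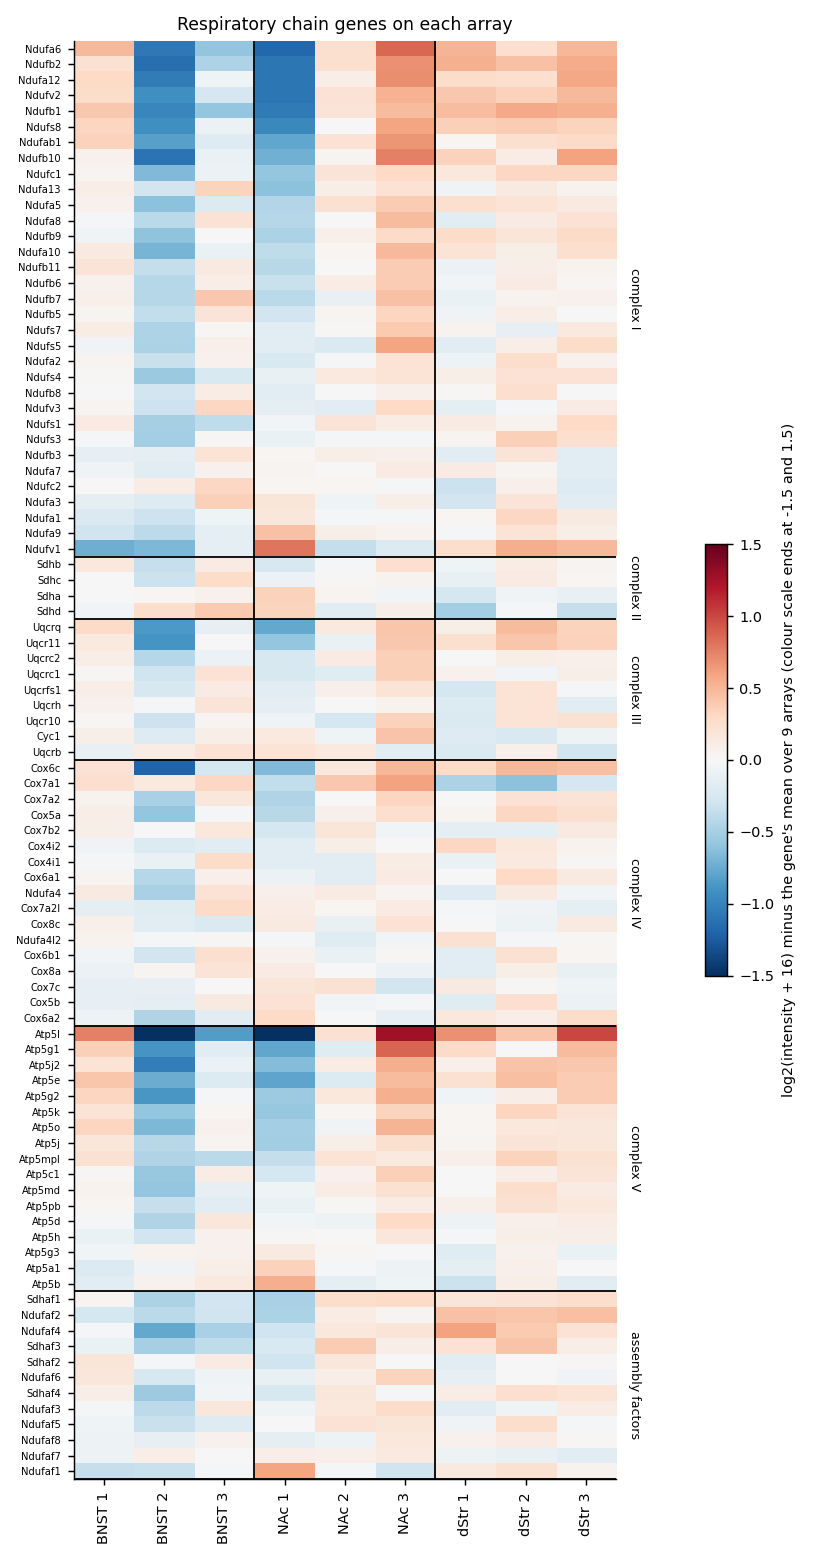
Heat map of the 92 genes (rows, grouped by complex and ordered by the deviation of NAc 1 from the mean of NAc 2 and 3) on the 9 arrays (columns), coloured by log2(intensity + 16) minus the gene's own mean over the arrays. The columns BNST 2 and NAc 1 are blue for most genes and NAc 3 is red for most. At the foot of each complex stand genes that were flat or higher on NAc 1.

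The low arrays were low for most genes. Within BNST, array 2 was the lowest of the 3 for 79 of 92 genes (85.9%, against 51.1% of all 14208 genes tested). Within NAc, array 1 was the lowest for 61 genes (66.3%, against 44.5% of all genes) and array 3 the highest for 62 (67.4%, against 32.6%). The heat map of the 92 genes shows these arrays as whole columns of 1 colour, broken by a minority of genes.

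The shift was not equal over the complexes. Complex I, the NADH dehydrogenase, averaged 10.54, 9.94 and 10.47 on BNST arrays 1 to 3, 10.14, 10.54 and 10.82 on NAc arrays 1 to 3, and 10.58, 10.69 and 10.69 on dStr arrays 1 to 3. Complex V spanned 0.71 within BNST and 0.71 within NAc, with BNST 2 at 10.15 and NAc 1 at 10.35. These were the complexes in which the low arrays fell furthest below their neighbours. Complex IV, cytochrome c oxidase, spanned 0.35 within BNST and 0.18 within NAc. Complex II, succinate dehydrogenase, was ordered otherwise, with 10.21, 10.08 and 10.39 in BNST, 10.26, 10.14 and 10.26 in NAc, and 9.94, 10.21 and 10.08 in dStr. For complex II the lowest array was dStr 1 and the highest BNST 3, and NAc 1 was not low.

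**Figure D2:**
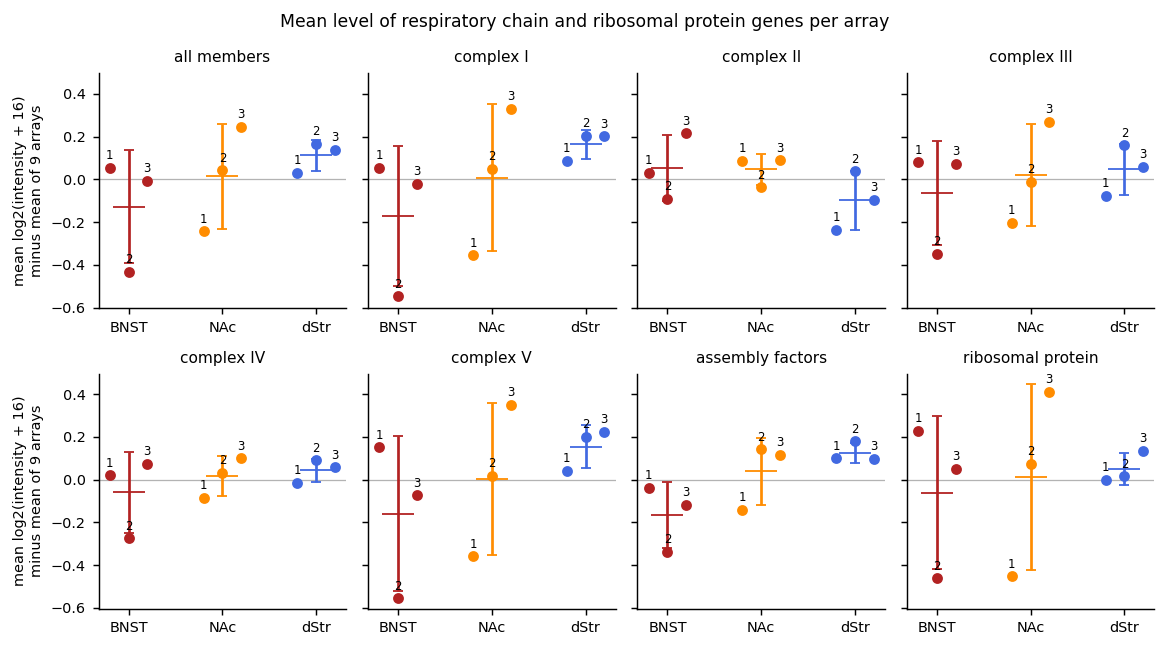
Mean log2(intensity + 16) of each complex, of all 92 genes and of 38 cytosolic ribosomal protein genes on each array, with the mean of the 9 arrays subtracted; points are arrays numbered by replicate, bars the region mean and SD. BNST 2 is the lowest BNST point in every panel and NAc 1 the lowest NAc point in every panel but complex II, and the dStr points lie close together in most.

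Genes of cytosolic ribosomal proteins, which are no part of the respiratory chain, moved in the same way. Their mean over 38 genes was 11.12, 10.43 and 10.94 on the BNST arrays, 10.44, 10.96 and 11.30 on the NAc arrays and 10.89, 10.91 and 11.02 on the dStr arrays. BNST 2 was the lowest of the BNST arrays for 92.1% of them and NAc 1 the lowest of the NAc arrays for 81.6%. The array sums of the medium spiny and limbic neuron markers differ between the regions, and their part in the spread within a region was not tested. As the plot of array means shows, the panel of ribosomal protein genes puts the BNST arrays and the NAc arrays in the same order as the panel of all 92 genes.

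Single genes were ranked by how far they shared in this movement, taken as the deviation of an array from the mean of the other 2 of its region. On BNST 2 the median deviation of the 92 genes was -0.44, with 86 below 0, against -0.12 over all genes tested. On NAc 1 it was -0.33, with 72 below 0, against -0.06 over all genes. Across the 92 genes the deviations on these arrays of different regions had Pearson's r of 0.838 and Spearman's rho of 0.805, against an r of 0.420 over all 14208 genes and 0.872 over the 38 ribosomal protein genes. The genes of an array share its RNA and labelling, so these are descriptions over genes and not over replicates.

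**Figure D3:**
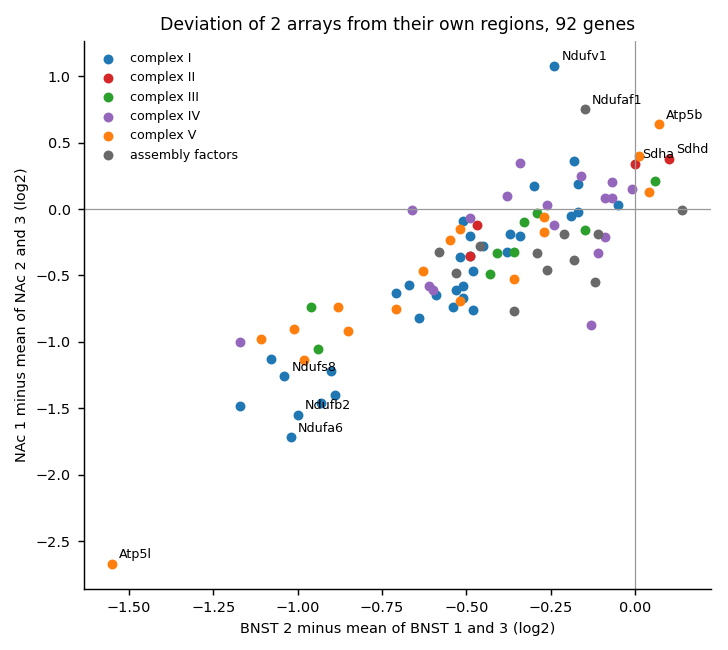
Each point is 1 of the 92 genes, with the log2 deviation of BNST 2 from the mean of BNST 1 and 3 on the x axis and that of NAc 1 from the mean of NAc 2 and 3 on the y axis, coloured by complex. Points run from Atp5l (-1.55 and -2.67) at the lower left to Atp5b, Sdhd and Sdha at the upper right, with Ndufv1 and Ndufaf1 above the rest.

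Genes of complexes I and V were among those that dipped furthest on the low arrays. Atp5l, subunit g in the membrane part of ATP synthase, had intensities of 469, 78.8 and 144 in BNST, 59.6, 319 and 677 in NAc, and 446, 367 and 556 in dStr. It was lowest on NAc 1 and BNST 2, and the regions overlapped. Ndufa6, an accessory subunit of complex I, read 1252, 413 and 583 in BNST, 387, 1050 and 1641 in NAc, and 1269, 1058 and 1266 in dStr. Ndufb2, an accessory subunit of the membrane arm, read 1262, 487 and 778 in BNST, 500, 1277 and 1740 in NAc, and 1564, 1466 and 1589 in dStr. Both had the same low arrays, and in Ndufb2 every BNST array lay below every dStr array. Ndufs8, a core subunit that carries iron-sulphur clusters, read 1261, 525 and 955 in BNST, 508, 1008 and 1525 in NAc and 1297, 1315 and 1283 in dStr. Its dStr arrays differed by 0.03 on the log2 scale while its NAc arrays spanned 1.56.

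Other genes of the same complexes were flat or ran the other way. Atp5g3, a gene for the ring-forming c subunit of ATP synthase, read 4402, 4676 and 4726 in BNST, 4949, 4551 and 4486 in NAc, and 3972, 4735 and 4231 in dStr. Its largest range within a region was 0.25. Its paralogues Atp5g1 and Atp5g2 encode the same mature c subunit. Atp5g1 read 599, 244 and 410 in BNST, 262, 407 and 866 in NAc and 566, 464 and 650 in dStr, and Atp5g2 read 1050, 453 and 826 in BNST, 569, 940 and 1222 in NAc and 810, 903 and 1095 in dStr. On NAc 1 the deviation was 0.13 for Atp5g3, -1.14 for Atp5g1 and -0.90 for Atp5g2. Atp5b, the catalytic beta subunit, was highest on NAc 1, with 3058, 3567 and 3792 in BNST, 4976, 3104 and 3267 in NAc, and 2731, 3624 and 3054 in dStr. Sdha, the flavin-bearing subunit of complex II, read 1848, 1892 and 1941 in BNST, 2355, 1914 and 1810 in NAc, and 1549, 1786 and 1717 in dStr. In Sdha every BNST array and every NAc array lay above every dStr array, and the BNST minus dStr difference of 0.17 ± 0.14 (SE) did not pass the test (adjusted p = 0.448, limma).

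**Figure D4:**
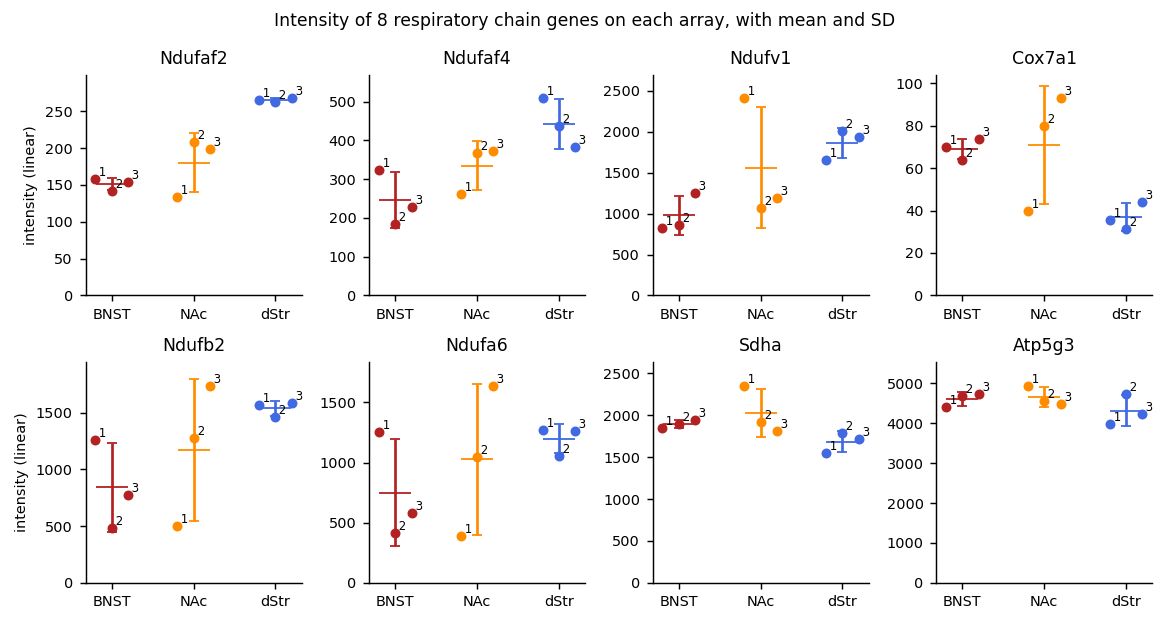
Linear intensity of 8 genes on each array, with points numbered by replicate and bars for the region mean and SD. Ndufb2 and Ndufa6 dip on BNST 2 and NAc 1, Sdha and Atp5g3 do not, and Ndufaf2 has tight dStr points above the rest.

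More than 1 probe set was kept for 48 of the 92 genes, and for 33 of these all gave the NAc 1 deviation the same sign. For 32 of the 48 all gave the BNST minus dStr difference the same sign. By complex, the median NAc 1 deviation was -0.57 in complex I, 0.11 in complex II, -0.32 in complex III, -0.01 in complex IV, -0.53 in complex V and -0.33 in the assembly factors. In complex IV 8 of 17 genes read higher on NAc 1 than on the other NAc arrays, against 5 of 33 in complex I.

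The question of region was then asked with 1 model over the 9 arrays, in which each gene's difference is set against the spread within regions (limma, Benjamini-Hochberg adjustment over all 14208 genes, threshold 0.05, 2-sided). Between BNST and NAc 0 of 92 genes passed, beside 2.24% of all genes tested, and 3 of 92 had an unadjusted p under 0.05, Ndufa9, Ndufaf5 and Sdhaf3 (3.26%, against 12.6% of all genes). The median difference was -0.13 over the 92 genes and -0.05 over all genes, with 78 genes below 0. That median was 0.02 without BNST 2, -0.03 without NAc 3, -0.23 without NAc 1, -0.22 without BNST 1 and -0.20 without BNST 3. The arrays of the 2 regions did not overlap for 3 genes (3.26%, against 14.6% of all genes). For 37 genes the 95% interval of the difference lay wholly within 0.5 of 0.

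Between BNST and dStr 3 of 92 genes passed (3.26%), beside 14.3% of all genes tested, and 17 had an unadjusted p under 0.05 (18.5%, against 29% of all genes). All 3 were lower in BNST, beside 9.33% of all genes called lower. The median difference was -0.20 over the 92 genes and -0.06 over all genes, with 70 genes below 0, and without BNST 2 it was -0.05. The count was 1 without BNST 2, BNST 3, dStr 1 or dStr 2, when 8.4%, 7.83%, 8.26% and 10.6% of all genes passed. It was 8 without BNST 1 and 7 without NAc 1, when 18.8% of all genes passed in either case, and 29 without BNST 1 and NAc 1 together, when 29.2% of all genes passed. The arrays did not overlap for 28 genes, 3 higher and 25 lower in BNST (30.4%, against 36.4% of all genes). The interval lay within 0.5 of 0 for 30 genes. Medians by complex were -0.36 in complex I, 0.07 in complex II, -0.06 in complex III, -0.06 in complex IV, -0.30 in complex V and -0.30 in the assembly factors.

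Between NAc and dStr, both striatal, 0 of 92 genes passed, beside 2.05% of all genes tested, and 2 had an unadjusted p under 0.05, Ndufaf2 and Cox7a1 (2.17%, against 13.1% of all genes). The median difference was -0.06 over the 92 genes and -0.01 over all genes. The count was 1 without NAc 1 (Cox7a1), when 2.95% of all genes passed. Cox7a1 passed the filter on low values through BNST and NAc arrays, where it read higher, so its place in these counts is a description. The median was 0.03 without NAc 1, -0.19 without NAc 3, -0.12 without dStr 1 and -0.03 without dStr 3. The arrays did not overlap for 8 genes (8.7%, against 19.1% of all genes), 4 each way, and the interval lay within 0.5 of 0 for 41 genes. In the F test over the 3 regions 1 gene passed, Ndufaf2, beside 10.3% of all genes tested; the count was 0 without BNST 2, BNST 3 or any 1 dStr array (5.21% to 6.29% of all genes), 3 without BNST 1 (13%) and 4 without NAc 1 (13.8%). BNST, NAc and dStr arrays enter 2 comparisons each, so the 3 sets of differences are not independent.

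**Figure D5:**
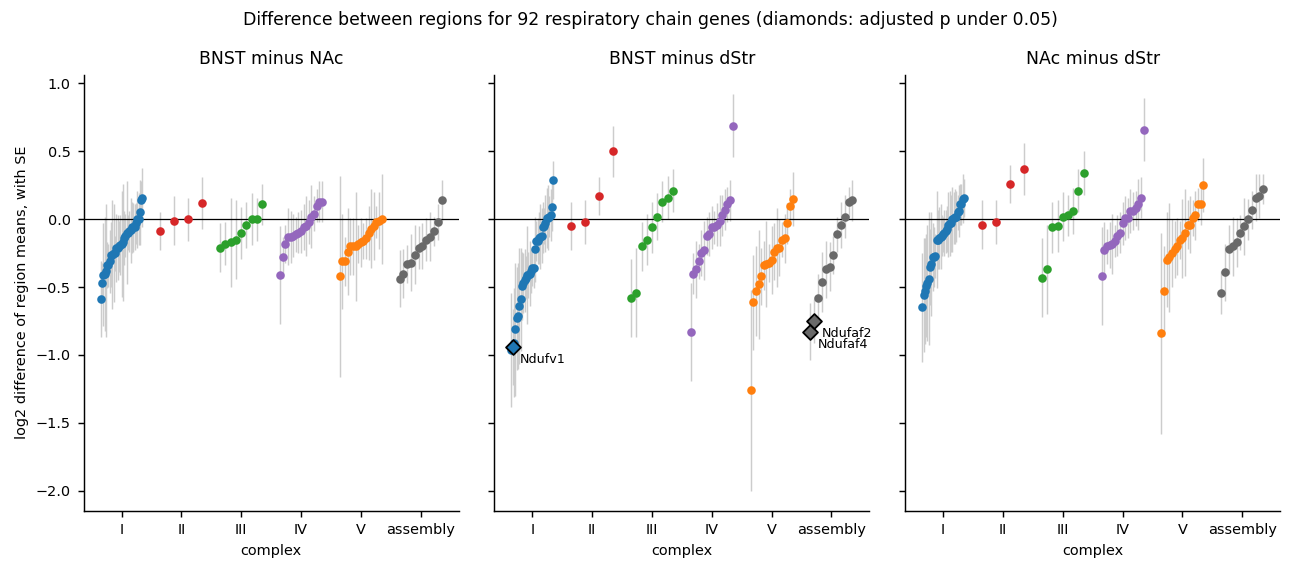
Difference of region means for each of the 92 genes by complex, with its SE, in the 3 comparisons; diamonds mark the genes with an adjusted p under 0.05. The only diamonds are Ndufv1, Ndufaf4 and Ndufaf2, below 0 in BNST minus dStr, and SE bars are longest for the genes that vary most between arrays.

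Ndufaf2 encodes a factor that assists a late step of complex I assembly, as known from human cells. It read 158, 142 and 153 in BNST, 134, 209 and 199 in NAc, and 265, 262 and 268 in dStr. All BNST and all NAc arrays lay below all dStr arrays, and BNST and NAc overlapped. The means were 151 ± 8.23 in BNST, 180 ± 40.4 in NAc and 265 ± 2.72 in dStr (SD, n = 3 each). Relative to dStr it was 1.69-fold lower in BNST, by -0.75 ± 0.16 on the log2 scale (SE, adjusted p = 0.0105, limma), and the NAc minus dStr difference was -0.54 ± 0.16 (adjusted p = 0.149, limma). It passed between BNST and dStr with any 1 of the 9 arrays left out, with the highest adjusted p of 0.0468 without BNST 2 (limma).

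Ndufaf4, another complex I assembly factor, read 324, 184 and 229 in BNST, 262, 368 and 374 in NAc, and 509, 436 and 382 in dStr. Every dStr array lay above every BNST and every NAc array. It was 1.78-fold lower in BNST than in dStr, by -0.83 ± 0.21 on the log2 scale (SE, adjusted p = 0.0268, limma), and the call ended without BNST 2 (adjusted p = 0.106), BNST 3 (0.1), dStr 1 (0.111) or dStr 2 (0.0718). A second probe set of the gene gave -0.32. Of all 12 assembly factors, 9 lay below 0 between BNST and dStr, and the arrays did not overlap for 8, of which 7 were lower and 1 higher in BNST (66.7%, against 36.4% of all genes). Ndufaf8, the brightest of them, read 886, 858 and 974 in BNST, 838, 879 and 1044 in NAc and 976, 1025 and 943 in dStr, and overlapped in every pair. Its second, dimmer probe set gave -0.68 between BNST and dStr, with every BNST array below every dStr array, against -0.11 for the one shown.

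Ndufv1 encodes the subunit that binds NADH and its flavin at the entry of complex I. It read 824, 859 and 1249 in BNST, 2410, 1070 and 1195 in NAc, and 1660, 2011 and 1930 in dStr. All BNST arrays lay below all dStr arrays, and within NAc array 1 read far above the other 2. The BNST minus dStr difference was -0.94 ± 0.28 (SE), 1.92-fold lower in BNST, with an adjusted p of 0.0496 (limma) that held under 9 of 25 alternative settings. The gene's other probe sets gave -0.28 and -0.23, and with the mean of its probe sets the adjusted p was 0.0875 (limma). With every kept probe set fitted apart, 4 probe sets passed between BNST and dStr (14.5% of all probe sets did), 1 each of Ndufaf2, Ndufaf4, Ndufs4 and Sdha. The Sdha probe set that passed is dim, with 65.0, 57.7 and 66.1 in BNST, 85.3, 77 and 48.6 in NAc and 139, 107 and 133 in dStr, and its difference of -0.85 runs against that of the bright Sdha probe set above.

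The promoters of the 3 called genes are shown because they are the genes that passed between BNST and dStr in the main fit. Windows of 300 bases (250 before to 50 after the start, RefSeq, GRCm38.p6) were held for 75 of the 92 genes, with the first by position taken for genes with several. They were searched on both strands for motifs of factors known to act on respiratory chain genes. Capitals mark matches.
Ndufaf2 promoter, chr13:108158576-108158875, minus strand: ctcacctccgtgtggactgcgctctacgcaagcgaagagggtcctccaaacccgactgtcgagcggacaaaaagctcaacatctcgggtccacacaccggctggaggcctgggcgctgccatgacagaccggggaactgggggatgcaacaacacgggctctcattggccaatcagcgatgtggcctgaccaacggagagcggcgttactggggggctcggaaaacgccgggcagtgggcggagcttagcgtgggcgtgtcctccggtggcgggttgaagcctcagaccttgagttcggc
Ndufaf4 promoter, chr4:24897833-24898132, plus strand: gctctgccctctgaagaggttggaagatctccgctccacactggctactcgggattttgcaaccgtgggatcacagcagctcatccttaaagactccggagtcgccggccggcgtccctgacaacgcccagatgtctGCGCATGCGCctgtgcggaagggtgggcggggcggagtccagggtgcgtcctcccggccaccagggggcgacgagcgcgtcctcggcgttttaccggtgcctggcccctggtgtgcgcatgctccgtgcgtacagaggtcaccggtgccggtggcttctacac
Ndufv1 promoter, chr19:4012706-4013005, minus strand: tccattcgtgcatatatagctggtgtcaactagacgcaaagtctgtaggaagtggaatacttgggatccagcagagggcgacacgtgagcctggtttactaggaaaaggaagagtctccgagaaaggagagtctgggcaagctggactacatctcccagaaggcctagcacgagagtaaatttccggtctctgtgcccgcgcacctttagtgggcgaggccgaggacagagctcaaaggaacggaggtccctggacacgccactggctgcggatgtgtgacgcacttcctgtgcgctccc

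The Ndufaf4 window holds 1 match to GCGCA, any base and GCGC, the motif of NRF-1, a factor named for its role at nuclear genes of the respiratory chain, and the windows of Ndufaf2 and Ndufv1 hold no match to the motifs searched. Over the 75 genes 18 windows held the NRF-1 letters (24%, against 4.68% of 27025 windows of all genes). AAGATGGCG, of the factor YY1, was in 7 (9.33%, against 1.49%), and CCGGAAGT, of the ETS family that includes GABP, in 5 (6.67%, against 3.93%). TCAAGGTCA, bound by the receptor ERR alpha, was in 2 (2.67%, against 0.407%), Atp5g3 and Sdhd. These are letter matches and not measured binding. The 75 genes had passed the filter on low values and the 27025 windows include genes that had not, so the shares are of unlike sets.

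The NRF-1 letters were found in genes of both kinds of array behaviour, as a steep gene (Ndufa6) and 2 flat ones (Sdha and Atp5g3) show, with capitals again for matches.
Ndufa6 promoter, chr15:82354242-82354541, minus strand: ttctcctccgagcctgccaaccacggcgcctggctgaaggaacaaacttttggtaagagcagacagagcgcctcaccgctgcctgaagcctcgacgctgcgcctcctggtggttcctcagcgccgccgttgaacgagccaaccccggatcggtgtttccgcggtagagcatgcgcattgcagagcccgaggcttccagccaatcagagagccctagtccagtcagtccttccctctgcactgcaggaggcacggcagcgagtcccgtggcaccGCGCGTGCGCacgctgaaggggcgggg
Sdha promoter, chr13:74350191-74350490, minus strand: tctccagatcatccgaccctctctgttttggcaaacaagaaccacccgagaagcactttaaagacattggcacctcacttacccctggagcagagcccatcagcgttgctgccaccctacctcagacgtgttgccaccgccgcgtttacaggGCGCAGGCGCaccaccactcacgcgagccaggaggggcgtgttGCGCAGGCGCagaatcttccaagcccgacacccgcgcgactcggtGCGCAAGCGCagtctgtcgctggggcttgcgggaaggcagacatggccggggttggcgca
Atp5g3 promoter, chr2:73911277-73911576, minus strand: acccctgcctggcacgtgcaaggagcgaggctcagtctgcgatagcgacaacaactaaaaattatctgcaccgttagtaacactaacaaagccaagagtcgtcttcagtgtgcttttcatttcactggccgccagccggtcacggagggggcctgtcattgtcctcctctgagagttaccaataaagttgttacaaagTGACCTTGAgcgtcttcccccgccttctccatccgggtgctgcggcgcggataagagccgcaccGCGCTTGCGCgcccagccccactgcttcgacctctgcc

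The Sdha window holds 3 NRF-1 matches and that of Ndufa6 holds 1, while Atp5g3 holds 1 NRF-1 match and 1 for ERR alpha. The median NAc 1 deviation was -0.41 in genes with the NRF-1 letters and -0.33 in those without, given here as a description.

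Ndufa1, the complex I gene with the brightest probe set, encodes a small membrane subunit and read 3515, 3301 and 3938 in BNST, 4637, 4092 and 4018 in NAc and 4181, 5092 and 4533 in dStr. Every BNST array lay below every array of NAc and of dStr, with differences of -0.25 ± 0.13 from NAc and -0.36 ± 0.13 from dStr (SE, adjusted p = 0.532 and 0.108, limma). Ndufb11, a membrane arm subunit, had the smallest F over the regions in the complex, with 2991, 2025 and 2885 in BNST, 1953, 2628 and 3402 in NAc and 2447, 2795 and 2698 in dStr.

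In complex II, Sdhd, a membrane anchor, read 818, 1017 and 1104 in BNST, 1066, 742 and 893 in NAc, and 586, 827 and 662 in dStr. BNST 1 lay just under dStr 2, and the difference of 0.50 ± 0.19 (SE) between BNST and dStr had an adjusted p of 0.107 (limma). Its second probe set gave -0.70, the opposite sign. Sdhb, the iron-sulphur subunit, read 2198, 1549 and 2152 in BNST, 1662, 1918 and 2359 in NAc and 1876, 2134 and 2025 in dStr, and Sdhc, the other anchor, gave differences of 0.00, -0.02 and -0.02 in the 3 comparisons.

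In complex III, which carries electrons from ubiquinone to cytochrome c, 0 of 9 genes passed in any pair and 0 had an unadjusted p under 0.05, where 12.6% of all genes did in BNST minus NAc, 29% in BNST minus dStr and 13.1% in NAc minus dStr. Cyc1, the cytochrome c1 subunit, read 2309, 1881 and 2286 in BNST, 2399, 2057 and 2916 in NAc and 1893, 1838 and 2047 in dStr. All its NAc arrays lay above all its dStr arrays, by 0.34 ± 0.16 (SE, adjusted p = 0.397, limma). Uqcrb, an accessory subunit, read 5299, 6207 and 6669 in BNST, 6641, 6374 and 5170 in NAc and 4968, 6060 and 4739 in dStr, overlapping throughout, and the core subunit Uqcrc1 gave 0.00, -0.06 and -0.05 in the 3 comparisons.

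Complex IV holds subunits with tissue-restricted isoforms. Cox7a1, the isoform of heart and skeletal muscle, read 69.7, 63.8 and 73.5 in BNST, 39.7, 79.8 and 92.9 in NAc, and 35.8, 31.1 and 44.2 in dStr. All BNST arrays and NAc 2 and 3 lay above all dStr arrays, and NAc 1 lay among the dStr arrays. The gene has 1 probe set, which is dim. It passed the filter on low values through BNST and NAc arrays, where it read higher, so its differences from dStr are descriptions. The BNST minus dStr difference was 0.69 ± 0.23 (SE), 1.61-fold higher in BNST, and missed the threshold (adjusted p = 0.0696, limma). The NAc minus dStr difference was 0.66 ± 0.23 (adjusted p = 0.214, limma), and without NAc 1 it was 0.95. Marker sums were taken over all listed genes on the array, tested or not. Muscle or blood markers, 4 on the array and 3 tested, summed to 623 to 747 in BNST, 602 to 819 in NAc and 738 to 830 in dStr. Pericyte and endothelial markers, 9 on the array and 8 tested, summed to 1740 to 1930 in BNST, 1930 to 2040 in NAc and 2400 to 2560 in dStr. In either list 0 were at the floor on all arrays. The part of such tissue in the Cox7a1 values was not tested.

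The widely expressed partner Cox7a2 read 3590, 2466 and 3906 in BNST, 2542, 3484 and 4355 in NAc and 3478, 4063 and 3978 in dStr, with the low arrays of the shared movement. Cox7a2l, which joins complexes III and IV, read 2037, 1974 and 2752 in BNST, 2424, 2289 and 2448 in NAc and 2193, 2161 and 2034 in dStr. For both, BNST and dStr overlapped.

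Cox6a2, the muscle isoform of subunit 6a, read 269, 202 and 252 in BNST, 348, 282 and 258 in NAc and 317, 303 and 345 in dStr, with BNST below dStr on all arrays (-0.40 ± 0.15, SE, adjusted p = 0.114, limma). Its partner Cox6a1 gave -0.25 ± 0.17 (adjusted p = 0.366, limma). Cox4i2, the isoform best known from lung, read 189, 169 and 173 in BNST, 173, 210 and 196 in NAc and 247, 222 and 204 in dStr. It too lay lower in BNST than in dStr on all arrays (-0.31 ± 0.13, SE, adjusted p = 0.141, limma), whereas its partner Cox4i1 gave 0.03 ± 0.15. Neither isoform of either pair passed.

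The remaining isoforms of complex IV had overlapping arrays between BNST and dStr. BNST minus dStr differences were 0.11 for Cox8a and -0.12 for Cox8c, an isoform of testis, 0.14 for Cox7b2, -0.06 for Cox6b1 and -0.04 for Cox5b, the brightest gene of the complex. Ndufa4 gave -0.01 and its paralogue Ndufa4l2, known from the response to low oxygen, gave -0.06. Cox6c, a structural subunit, read 3021, 1122 and 2155 in BNST, 1627, 2905 and 3666 in NAc and 3205, 3639 and 3557 in dStr, and behaved as the steep genes do (-0.83 ± 0.36, SE, adjusted p = 0.154, limma).

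In complex V 0 of 17 genes passed in any pair, and 1 had an unadjusted p under 0.05 between BNST and dStr (5.88%, against 29% of all genes, of which 14.3% passed). That gene was Atp5pb, subunit b of the stalk that holds the enzyme still, with 2428, 1882 and 2114 in BNST, 2226, 2419 and 2599 in NAc and 2528, 2809 and 2672 in dStr. All its BNST arrays lay below all dStr arrays (-0.32 ± 0.14, SE, adjusted p = 0.147, limma). A second probe set of Atp5pb gave 0.24, the opposite sign. Atp5o, another stalk subunit, read 1909, 944 and 1594 in BNST, 1060, 1463 and 2164 in NAc and 1544, 1691 and 1717 in dStr, and overlapped in every pair.

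To set the regions apart from the movement that the arrays share, the mean of the 38 ribosomal protein genes on each array was entered as a covariate, which leaves 5 residual degrees of freedom. The median residual SD of the 92 genes was 0.146 with the covariate and 0.239 without it, against 0.181 and 0.210 over all genes, and it was lower with the covariate for 79 of 92. The ribosomal mean itself differed by -0.11 between BNST and dStr, so the covariate can take up part of a shift between regions. The median BNST minus dStr difference of the 92 genes was -0.12 with it and -0.20 without it. Between BNST and dStr 15 of 92 genes then passed (16.3%, beside 20.1% of all genes), 14 of them lower in BNST. The 11 genes added to those lower in BNST were Ndufb2 (-0.75 ± 0.15, adjusted p = 0.00539), Cox6c (-0.65 ± 0.14, adjusted p = 0.00726), Ndufs8 (-0.39 ± 0.12, adjusted p = 0.0446), Sdhaf3, Ndufa12, Ndufb1, Ndufb10, Ndufv2, Uqcr11, Atp5j2 and Atp5l (SE, limma). Cox7a1 was the only higher gene among the 15 (0.77 ± 0.16, SE). It had passed the filter on low values through BNST and NAc arrays, where it read higher, so this difference is a description.

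With the covariate 0 of 92 genes passed between BNST and NAc (4.45% of all genes did), and 2 between NAc and dStr (4.6% of all genes did). These were Ndufaf2 (-0.52, adjusted p = 0.0466, limma) and Cox7a1, whose difference of 0.69 is again a description. Ndufaf2, Ndufaf4 and Ndufv1 passed between BNST and dStr in this fit too. When each array was instead centred on the mean of the 92 genes, any mean shift they share between regions was removed in full. Then 1 gene passed between BNST and dStr, Cox7a1, higher in BNST by 0.93 ± 0.21 (SE, limma, beside 11.3% of all genes). Its difference was 0.69 before the centring, and it passed the filter on low values through BNST and NAc arrays only, so both are descriptions. Under that centring Ndufaf2 differed by -0.51 (adjusted p = 0.102) and Ndufaf4 by -0.59 (adjusted p = 0.0764, limma).

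The level of the shared movement also went with the region difference of single genes. Across the 92 genes the NAc 1 deviation and the BNST minus dStr difference, which have no array in common, had an r of 0.569, or 0.350 with BNST 2 left out, and an r of 0.080 over all 14208 genes. Genes that read lower on NAc 1 tended to read lower in BNST relative to dStr.

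Genes around the respiratory chain were read from lists of their own, and passed only between BNST and dStr (limma). In that comparison 14.3% of all genes passed, and 9.33% of all genes passed as lower in BNST. Of 38 assembly and electron carrier genes outside the naming rule 2 were higher in BNST, Etfa (0.66 ± 0.14, adjusted p = 0.0106), which hands electrons from fatty acid oxidation to the chain, and Uqcc1 (0.43 ± 0.12, adjusted p = 0.0431), a complex III assembly factor. Another 2 were lower, Atpaf1 (-0.67 ± 0.20, adjusted p = 0.0478), which assembles ATP synthase, and Ecsit (-0.43 ± 0.13, adjusted p = 0.0481), which assists complex I (SE, limma). Cycs, cytochrome c itself, gave -0.46 ± 0.18 and did not pass.

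Of 16 regulators of mitochondrial biogenesis 3 were lower in BNST than in dStr, beside 9.33% of all genes. Ppargc1b, a coactivator of respiratory genes, averaged 278 ± 125 in BNST and 614 ± 92.4 in dStr (SD, n = 3 each, adjusted p = 0.0118, limma). Twnk, the helicase of mitochondrial DNA (-0.63 ± 0.15, adjusted p = 0.0162), and Tfb1m, which modifies mitochondrial ribosomal RNA (-0.51 ± 0.12, adjusted p = 0.0191), were the others (SE, limma). Ppargc1a gave -0.16, Nrf1 -0.22 and Tfam 0.17, and these did not pass.

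Of 17 genes of the TCA cycle 1 passed, Idh2, higher in BNST (0.88 ± 0.17, SE, adjusted p = 0.0061, limma), beside 14.3% of all genes. Of 13 glycolytic genes and 11 carriers of the inner membrane 0 passed. Of 20 import genes 2 were lower in BNST, Tomm70a (-1.04 ± 0.20, adjusted p = 0.00587) and Timm8a1 (-0.62 ± 0.16, adjusted p = 0.0285, SE, limma). Of 76 mitochondrial ribosome genes 5 were lower, Mrps9, Mrps18c and Mrps33 among them. Both counts stand beside 9.33% of all genes called lower. Astrocyte markers, 6 of 6 tested, summed to 6850 to 9090 in BNST, 4640 to 5710 in NAc and 4370 to 5160 in dStr, and their part in the genes higher in BNST was not tested. ND5, the only gene of the mitochondrial genome with a probe set here, averaged 6264 ± 565 in BNST, 6561 ± 644 in NAc and 6166 ± 180 in dStr (SD, n = 3 each), with a BNST minus dStr difference of 0.02 ± 0.13 (SE).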

How the data were processed

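The 9 arrays (3 each of BNST, NAc and dStr) were grouped by their titles. The deposited values are linear probe-set intensities in 1 table of 45037 probe sets, as deposited by the authors; how they were summarised and scaled is not stated there. Low signals had been set to a floor of 15, where 2270 to 2698 probe sets per array stood, so folds of dim genes are understated. Gene symbols came from the platform annotation given for this work. Control probe sets were not analysed here. Precision is limited by the number of arrays.

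Values were taken as log2(intensity + 16) with no further scaling, since array medians differed by at most 0.12 (log2). Probe sets with at least 3 arrays above the array's 40th percentile were kept, and the brightest kept probe set stood for its gene. Regions were compared with limma 3.58.1 in R 4.3.3 (region means, 6 residual degrees of freedom, moderated tests, Benjamini-Hochberg over 14208 genes in each comparison, threshold 0.05, 2-sided). The procedure was tested on simulated data. The genes named are those past the threshold, in each complex the brightest and those with the highest and lowest F, and isoforms with their partners; genes named for their array deviations or their unadjusted p were chosen after their values were seen. Members and lists were chosen with earlier results of these data known. Alternatives changed scaling, filter, probe set choice, pseudocount, prior, covariate, array weights, block and arrays.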

Additional observations from a re-analysis of the deposited data

How the results depend on the processing

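Between BNST and dStr the count of respiratory chain genes called, 3, was 6 with the arrays of the pair alone (17.8% of all genes), 0 with an absolute log2 difference of at least 1 (6.1%), 15 with the ribosomal covariate (20.1%), 1 with arrays centred on the 92 genes (11.3%), 25 with array weights (44.8%), 29 without BNST 1 and NAc 1 together (29.2%), and 1 to 8 with 1 array left out. Between BNST and NAc the count of 0 became 9 with array weights (22.3% of all genes) and 15 without BNST 1 and NAc 1 (15.5%). Between NAc and dStr it became 2 with the covariate (4.6% of all genes), 1 with array weights (5.36%), 2 without BNST 1 and NAc 1 (4.98%), 1 without BNST 2 and NAc 1 (3.27%, a setting chosen after seeing the data), and 0 to 1 with 1 array left out. The F test count of 1 became 10 with the covariate (15.7% of all genes), 22 with array weights (41.8%), 2 with the mean of probe sets (11%), 3 with every probe set (10.1%), 23 without BNST 1 and NAc 1 (25.9%), 3 without BNST 2 and NAc 1 (9.48%), and 0 to 4 with 1 array left out. The range of the array mean over the 9 arrays, 0.68, was 0.41 after quantile normalisation. Of 2292 alternative values for 93 named gene results, 23 ended a call, 29 made one and 0 reversed a call. The labels do not say whether same-numbered arrays share animals. Correlations of same-numbered deviations ran from -0.514 to 0.261, and with 3 arrays per region they cannot settle this. With the replicate block 1 gene, Ndufaf2, was called between BNST and dStr (10.4% of all genes) and 0 in the F test (6.71%). The causes were not tested. The median half-width of the 95% interval over the 92 genes was 0.41 in each comparison.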
